A study of Drosophila melanogaster with 15 samples.

Results

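The genes described here encode the subunits of the proteasome in Drosophila melanogaster. They were taken as every symbol of the count files that begins with Prosalpha, Prosbeta, Pros, Rpn or Rpt followed by a number or a subunit number, which gave 41 of 15682 gene symbols. Of these, 28 were general subunits and 13 were testis paralogs. A paralog was recognised by a symbol ending in T or R, as Prosalpha6T or Rpt3R. For 11 paralogs that ending stood in the symbol of the files. For the other 2, Pros28.1A and Pros28.1B, it stood only in their current RefSeq symbols (Prosalpha4T1 and Prosalpha4T2).

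The 26S proteasome is the protease of the cytosol and nucleus that degrades proteins tagged with ubiquitin. Its 20S core is a barrel in which outer rings of alpha subunits gate the chamber and inner rings of beta subunits carry the catalytic sites. The 19S cap holds a ring of Rpt ATPases, which unfold the substrate, and Rpn subunits, which bind and remove ubiquitin. In Drosophila many subunits have a second gene that is expressed mainly in the male germline, and in muscle the proteasome is best known for its part in protein loss during atrophy.

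Each of 5 genotypes was sampled in 3 biological replicates. The RNA came from larval fillets, a preparation that leaves the body wall, chiefly its skeletal muscle together with epidermis. All genotypes carried the Mef2-Gal4 driver, which in the study's account is also active in visceral muscle and in some brain cells. Mef2>Deaf1RNAi expressed a hairpin against the transcription factor gene Deaf1 and was set against Mef2>whiteRNAi, in which the hairpin is directed to white, a gene of eye pigmentation. Mef2>Deaf1 overexpressed Deaf1 and Mef2>Gsk3CA carried a constitutively active form of the kinase Gsk3, and each was compared with Mef2>+, which carried the driver and no second transgene. These comparisons asked what the level of Deaf1 or the activity of Gsk3 in muscle does to transcript levels. A further comparison, of the RNAi control Mef2>whiteRNAi with Mef2>+, set the 2 kinds of control side by side. The last 3 comparisons share the same 3 Mef2>+ libraries. Each library held 16186361 to 32756446 counts on genes. Levels are given as CPM, the counts of a gene scaled to a common library size, and a gene was called changed where its adjusted p was under 0.05 in the quasi-likelihood test of edgeR, with p-values adjusted by Benjamini-Hochberg over 10930 genes.

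The labels were checked first. Deaf1 was at 22.9 ± 1.23 CPM in Mef2>Deaf1RNAi, against 41.8 ± 2.69 CPM in the Mef2>whiteRNAi controls (SD, n = 3 each, adjusted p = 9.0e-04). It was at 43.2 ± 3.92 CPM in Mef2>Deaf1, against 34.8 ± 2.73 CPM in Mef2>+ (log2 fold change 0.31, adjusted p = 0.058). Between the 2 controls Deaf1 was also higher without overlap in Mef2>whiteRNAi than in Mef2>+ (log2 fold change 0.26, adjusted p = 0.088). The rise in Mef2>Deaf1 was thus close to that between the controls, and Deaf1 overexpression is used below as the name of the genotype. The Gsk3 gene sgg was at 400.3 ± 109 CPM in Mef2>Gsk3CA, against 368.6 ± 99.3 CPM in Mef2>+ (adjusted p = 0.779), so these are called the libraries labelled Gsk3CA below. The 12 genes of a muscle list were present in every library. In Mef2>Deaf1 11 of them were called lower than in Mef2>+, and in Mef2>whiteRNAi 12 were, beside 12.4% and 16.5% of all genes tested called in either direction. In Mef2>Deaf1RNAi 8 were called higher than in Mef2>whiteRNAi, beside 8.81%. In the libraries labelled Gsk3CA 0 were called against Mef2>+, beside 14.1%, with a median log2 fold change of -0.59. The 14 midgut genes listed summed to 2.39 to 8.60 CPM in the libraries labelled Gsk3CA, against 119 to 438 CPM in Mef2>+. Their sum was 5.74 to 111 CPM in Mef2>Deaf1, 4.77 to 7.05 CPM in Mef2>Deaf1RNAi and 55.5 to 443 CPM in Mef2>whiteRNAi. The 6 fat body genes summed to 7099 to 10583 CPM in Mef2>whiteRNAi, against 2516 to 6875 CPM in Mef2>+. They had 2784 to 4850 CPM in Mef2>Deaf1RNAi, 3413 to 6745 CPM in Mef2>Deaf1 and 1004 to 6308 CPM in the libraries labelled Gsk3CA. In such bulk samples fewer cells of a type and less RNA per cell cannot be told apart. Transcripts of 20 spermatid genes stood out in 5 libraries: their summed level was 528, 578 and 123.1 CPM in the 3 libraries labelled Gsk3CA, 48.4 CPM in replicate 3 of Mef2>Deaf1 and 94.4 CPM in replicate 3 of Mef2>+, and at most 7.62 CPM in the other 10. All 20 were detected in each of those 5 libraries and 7 to 18 of them in each of the other 10. The 12 listed spermatocyte regulators summed to 141, 157 and 46.8 CPM in the libraries labelled Gsk3CA. They had 51.8 CPM in replicate 3 of Mef2>+ and at most 34.5 CPM in the rest. Replicate 3 of Mef2>Deaf1, at 28.3 CPM, lay between replicates 1 and 2 of that genotype, at 30.3 and 20.4 CPM. Most of each of these sums came from 1 gene, bol, at 25.5, 16.8 and 23.0 CPM in replicates 1 to 3 of Mef2>Deaf1. In the libraries labelled Gsk3CA bol had 79.4, 89.1 and 33.1 CPM, and in replicate 3 of Mef2>+ 38.3 CPM. All 12 regulators had 1 CPM or more in replicates 1 and 2 of the libraries labelled Gsk3CA, and 4 did in replicate 3. In replicate 3 of Mef2>+ 5 did, and elsewhere 2 to 4. The early germline genes vas, nos and bam summed to 3.51, 4.36 and 0.799 CPM in the libraries labelled Gsk3CA. Elsewhere this sum was at most 1.19 CPM. The labels give no sex for the larvae.

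The general subunits were abundant in larval body wall and were at similar levels to one another. Over the 15 libraries the mean level per kilobase of exon ran from 272 CPM per kb for Rpn12, a subunit of the 19S lid, to 473 CPM per kb for Pros35, the alpha ring subunit Prosalpha6, a 1.74-fold range. The 5 Rpt ATPases lay closest together, between 369 CPM per kb for Rpt4 and 389 CPM per kb for Pros45, which is Rpt6. In the beta ring Prosbeta1, Prosbeta2 and Prosbeta5, the subunits with catalytic sites, had 408, 437 and 456 CPM per kb. Prosbeta3, Pros26 (Prosbeta6) and Prosbeta7 have no catalytic site and had 303, 341 and 402 CPM per kb. The Rpn subunits were the lowest group, with a median of 291 CPM per kb against 404 CPM per kb in the alpha ring and 405 CPM per kb in the beta ring. Within the Rpn group the highest was Rpn11, the deubiquitinase of the lid, at 383 CPM per kb. The scaffold subunits Rpn1 and Rpn2, the longest of these genes, had 283 and 272 CPM per kb. Exon lengths were those of the BDGP6 annotation, while the files were counted on an earlier build.

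The 28 genes also moved together from library to library. Their summed level was 13579, 13953 and 14225 CPM in Mef2>Deaf1RNAi, against 15453, 17121 and 11772 CPM in Mef2>whiteRNAi. It was 12278, 12380 and 14205 CPM in Mef2>Deaf1. The libraries labelled Gsk3CA had 12232, 10910 and 17762 CPM, and the Mef2>+ controls of both had 14364, 14656 and 10656 CPM. The genotypes overlapped in each of these comparisons. Replicate 3 differed from replicates 1 and 2 in 4 genotypes: it was the lowest in Mef2>whiteRNAi and Mef2>+ and the highest in Mef2>Deaf1 and in the libraries labelled Gsk3CA. In each of the 5 genotypes the replicate 3 library was at opposite ends of the proteasome sum and of the summed level of the 12 muscle genes. The muscle sum was 100796 CPM in replicate 3 of Mef2>+ against 65392 and 70433 CPM in the other two, and 39606 CPM in the libraries labelled Gsk3CA for replicate 3, against 56618 and 57426 CPM. The part of muscle content in the proteasome sum was not tested. Between replicates a general subunit had a median SD of 0.235 on the log2 scale, and all genes tested had 0.240. Over the 15 libraries the 378 pairs of general subunits had a median Pearson correlation of log2 CPM of 0.908, and the points share library and depth. Prosalpha1 and Rpn9 were the exceptions, with a median correlation to the other subunits of 0.65 and 0.67. For the remaining 26 genes this median was 0.84 or higher.

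**Figure D1:**
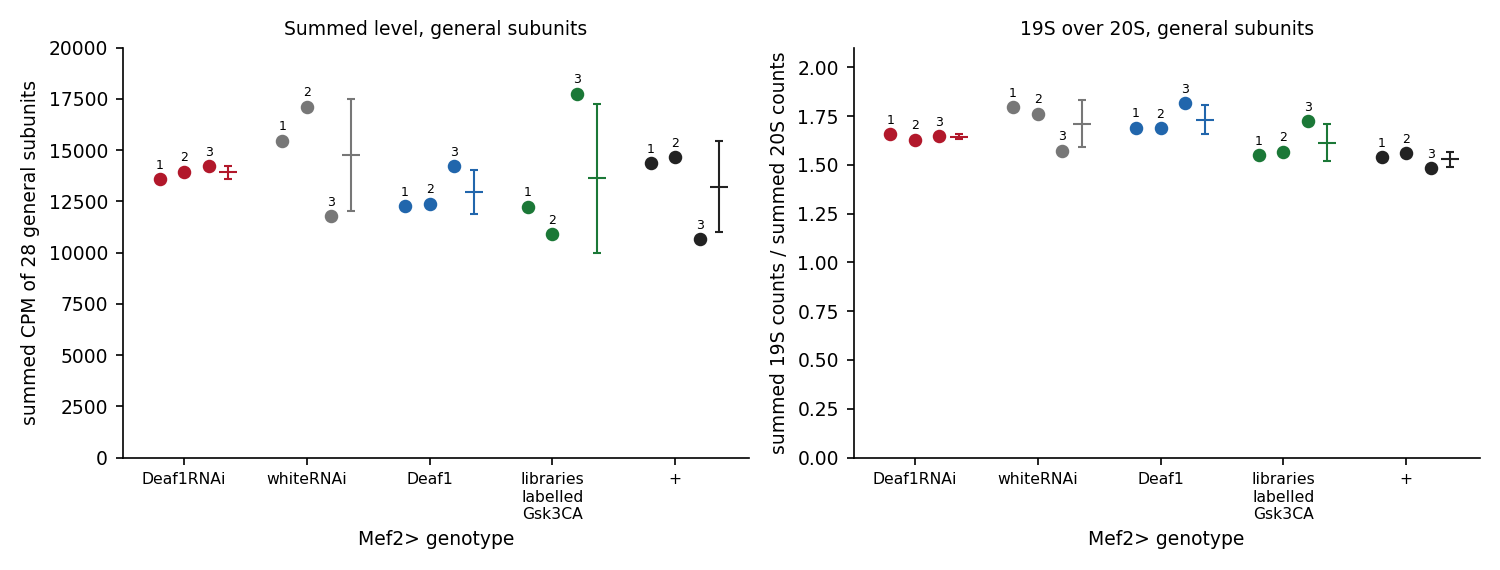
Left, summed CPM of the 28 general subunits in each library. Right, summed counts of the 15 general 19S subunits over those of the 13 general 20S subunits. Points are libraries with their replicate number, and bars give the mean and SD of 3. The sums overlap between genotypes, from 10656 to 17762 CPM, and the ratio was between 1.69 and 1.82 in Mef2>Deaf1 and between 1.48 and 1.56 in Mef2>+.

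Muscle with Deaf1 RNAi showed no called change in any general subunit. All 28 passed the filter on low counts, and 0 were called by edgeR, against 8.81% of all genes tested. At an unadjusted p under 0.05 the count was 0, beside 2700 of the 10930 genes tested, and DESeq2 and limma voom called 0. Log2 fold changes ran from -0.23 for Prosalpha1 to 0.08 for Pros35, with a median of -0.09 beside -0.05 over all genes tested. Of the 28, 4 had a log2 fold change above 0, against 42.7% of all genes tested, and all 15 of the 19S cap were below 0. The libraries did not overlap for 1 subunit, against 30.9% of all genes. That was Prosalpha1, the first subunit of the alpha ring, which had 248, 260 and 253 CPM in Mef2>Deaf1RNAi, against 300.0, 334 and 261 CPM in the Mef2>whiteRNAi controls (log2 fold change -0.23, SE 0.16). The highest and lowest ends of the 95% intervals over the 28 genes were a 1.38-fold rise and a fall to 0.624 of the control level. Changes within these bounds are not excluded by the data.

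Deaf1 overexpression likewise left 0 of 28 called by edgeR, against 12.4% of all genes tested, but the general subunits spread more widely. At an unadjusted p under 0.05 there were 2, Prosalpha1 and Rpn9, beside 2850 of the 10930 genes tested. DESeq2 called the same 2, beside 1960 of all genes tested, while limma voom called 0. The median log2 fold change was -0.03 beside -0.02 over all genes tested, and 9 of 28 were above 0, against 47.9% of all genes. All 13 genes of the 20S core were below 0, with a median of -0.14, and 9 of 15 genes of the 19S cap were above 0, with a median of 0.01. Among the catalytic subunits the log2 fold changes were -0.15 for Prosbeta1, -0.01 for Prosbeta2 and -0.05 for Prosbeta5 (SE 0.17 each). The libraries did not overlap for 2 of the 28, against 33.2% of all genes, and these were again Prosalpha1 and Rpn9. They were also the extremes of the range, and the next lowest and highest were Prosbeta7 at -0.24 (SE 0.15) and Pros54, the ubiquitin receptor Rpn10, at 0.11 (SE 0.22).

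Rpn9 is a subunit of the 19S lid. It had 549.7, 555 and 684 CPM in Mef2>Deaf1, against 439, 453 and 316 CPM in Mef2>+. The 3 overexpression libraries lay above the 3 controls, and the log2 fold change was 0.57 (SE 0.21, adjusted p = 0.099 in edgeR and 0.033 in DESeq2). Set against the other subunits of the same library the replicates were closer. Rpn9 made up 4.48%, 4.48% and 4.82% of the summed general counts in Mef2>Deaf1 and 3.05%, 3.09% and 2.96% in Mef2>+, a ratio of means of 1.51. The next highest ratio in that comparison was 1.11 for Pros54. With libraries scaled to the summed general subunits in place of all genes, a setting chosen after the data were seen, Rpn9 had a log2 fold change of 0.60 and an adjusted p of 0.0039. Its share was 3.57%, 3.67% and 3.64% in the libraries labelled Gsk3CA, again without overlap with Mef2>+. It was 3.25%, 3.40% and 3.45% in Mef2>Deaf1RNAi and 3.35%, 3.54% and 3.36% in Mef2>whiteRNAi, which overlapped each other, and Mef2>whiteRNAi lay above Mef2>+. Shares without overlap were common on this scale, found against Mef2>+ for 11 of 28 subunits in Mef2>Deaf1, for 11 where the label was Gsk3CA and for 13 in Mef2>whiteRNAi. In the BDGP6 annotation 264 bp of the exons of Rpn9 overlap exons on the opposite strand, those of CG10365 included. The libraries were made with a stranded kit, and whether the counting used strand is not given in the sources used here. CG10365 was at 165 ± 4.74 CPM in Mef2>Deaf1, against 137 ± 31.5 CPM in Mef2>+ (log2 fold change 0.26, SE 0.17, adjusted p = 0.380), with overlap.

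Prosalpha1 lay at the other end. It had 220, 222 and 246 CPM in Mef2>Deaf1, against 349, 365 and 269 CPM in Mef2>+. All 3 overexpression libraries were below the controls (log2 fold change -0.52, SE 0.16, adjusted p = 0.053). Under other settings the adjusted p was on the other side of the threshold: 0.037 with DESeq2's size factors in edgeR, 0.016 with at least 10 counts required in every library, 0.0064 in DESeq2, 0.049 with only the 6 libraries compared, and 0.039 without replicate 3 of Mef2>+. Its share of the summed general counts was 1.79%, 1.79% and 1.73% in Mef2>Deaf1 and 2.43%, 2.49% and 2.53% in Mef2>+. It was 1.82%, 1.86% and 1.78% in Mef2>Deaf1RNAi and 1.94%, 1.95% and 2.22% in Mef2>whiteRNAi. In the libraries labelled Gsk3CA it was 2.35%, 2.30% and 2.19%. The share was thus lower without overlap in all 4 comparisons, that of the 2 controls included. With libraries scaled to the summed general subunits the fall in Mef2>Deaf1 had a log2 fold change of -0.49 and an adjusted p of 0.012.

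The neighbours of Prosalpha1 on chromosome arm 2R were also examined. In the BDGP6 annotation the order of genes is phr, Prosalpha1, CG18853 and CG30382, and CG30382 is the paralog now named Prosalpha1R. The exons of Prosalpha1 overlap those of phr, a DNA photolyase gene, by 17 bp on the opposite strand. In Mef2>Deaf1, phr was at 7.79 ± 0.459 CPM, against 35.5 ± 1.74 CPM in Mef2>+ (log2 fold change -2.19, SE 0.08, adjusted p = 1.1e-08). CG18853 lay the other way, at 11.1 ± 0.645 CPM in Mef2>Deaf1, against 9.24 ± 0.537 CPM in Mef2>+ without overlap, and was not called (log2 fold change 0.27, SE 0.10, adjusted p = 0.108). CG30382 was at the level of a general subunit in these libraries. It had 226, 224 and 245 CPM in Mef2>Deaf1, against 366, 369 and 289 CPM in Mef2>+, close to Prosalpha1 in each library, and it was called lower (log2 fold change -0.56, SE 0.16, adjusted p = 0.037). That call was lost in the fit with replicate number as a block (adjusted p = 0.075), without a filter on low counts (0.051) and when any 1 of replicates 1 and 2 of Mef2>+ or 1 to 3 of Mef2>Deaf1 was left out (0.088 to 0.134). How reads were divided between such close copies is not known, so the separate values of Prosalpha1 and CG30382 are uncertain.

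**Figure D2:**
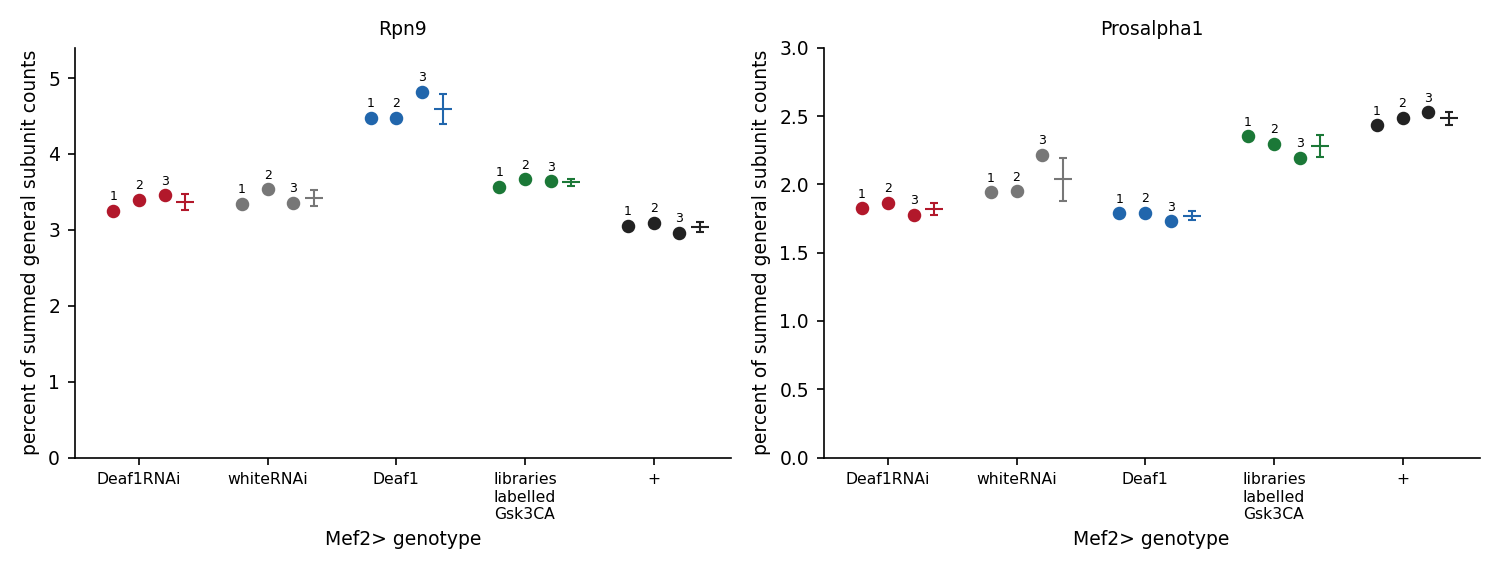
Share of Rpn9 and of Prosalpha1 in the summed counts of the 28 general subunits, in percent, for each library. Points are libraries with their replicate number, and bars give the mean and SD of 3. In Mef2>Deaf1 Rpn9 reached 4.48 to 4.82%, above all other libraries, and Prosalpha1 was at 1.73 to 1.79%, below all 3 Mef2>+ libraries.

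The libraries labelled Gsk3CA had 0 of 28 general subunits called against Mef2>+ by edgeR, beside 14.1% of all genes tested. At an unadjusted p under 0.05 there were 0, beside 3807 of the 10930 genes tested. DESeq2 and limma voom called 0, and libraries were without overlap for 0 of 28, against 36.5% of all genes. The median log2 fold change was 0.02 beside -0.04 over all genes tested, and 18 of 28 were above 0, against 45.6% of all genes. Rpn9 was the highest at 0.30 (SE 0.21), with 437, 400.0 and 647 CPM in the libraries labelled Gsk3CA, against 439, 453 and 316 CPM in Mef2>+. Prosbeta2, the catalytic subunit with trypsin-like activity, followed at 0.23 (SE 0.17). Prosalpha5 was the lowest at -0.14 (SE 0.15). The intervals reached from 0.687 of the control level to 1.68-fold.

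Between the 2 controls, Mef2>whiteRNAi and Mef2>+, 0 of 28 were called by edgeR, beside 16.5% of all genes tested, and DESeq2 and limma voom also called 0. At an unadjusted p under 0.05 there were 0, beside 3649 of the 10930 genes tested. The libraries were without overlap for 0 of 28, against 33.3% of all genes. Of the 28, 25 had a log2 fold change above 0, against 48.2% of all genes, with a median of 0.16 beside -0.02 over all genes tested. All 15 genes of the 19S cap were above 0, with a median of 0.21, and the median of the 13 core genes was 0.03. Rpn6, a lid subunit that clamps the cap to the core, was the highest at 0.34 (SE 0.21). Prosalpha1 was the lowest at -0.14 (SE 0.16). The 95% intervals of all 28 included 0. General subunits moved together from library to library, so counts of signs over them, here and in the other comparisons, are not counts of independent genes.

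**Figure D3:**
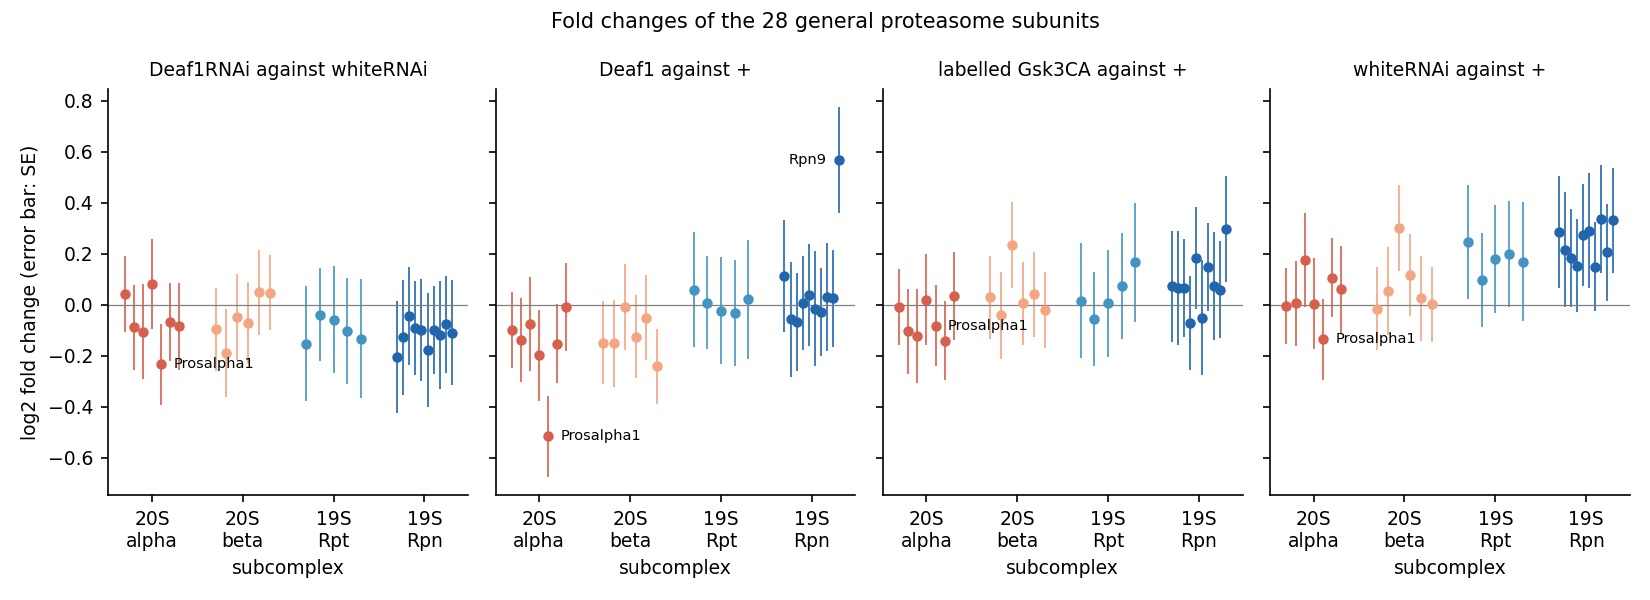
Log2 fold change of each of the 28 general subunits in the 4 comparisons, grouped by subcomplex. Points are genes and bars are standard errors. Values lie between -0.24 and 0.34 apart from Prosalpha1 at -0.52 and Rpn9 at 0.57 in Mef2>Deaf1 against Mef2>+.

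The ratio of cap to core transcripts was also compared. Summed 19S counts over summed 20S counts were 1.66, 1.63 and 1.65 in Mef2>Deaf1RNAi and 1.80, 1.76 and 1.57 in Mef2>whiteRNAi, which overlapped. They were 1.69, 1.69 and 1.82 in Mef2>Deaf1 and 1.55, 1.57 and 1.72 in the libraries labelled Gsk3CA, against 1.54, 1.56 and 1.48 in Mef2>+. All Mef2>Deaf1 libraries were above all Mef2>+ libraries, and so were all Mef2>whiteRNAi libraries. The ratio was chosen after the values were seen, and no test was run on it.

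The testis paralogs were 13 genes on the same plan: 4 of the alpha ring, 5 of the beta ring, 3 Rpt ATPases and 1 Rpn subunit. Of these, 12 passed the filter on low counts and Prosalpha3T did not. Most passed through the libraries labelled Gsk3CA, where they were high, so no count or median over them is given as support for a difference. Rpt3R and Rpt6R were above the filter's level in all 15 libraries. The other 11 were near or at 0 outside the libraries with spermatid transcripts, a split made after the values were seen. Together all 13 took 0.593%, 0.698% and 0.209% of the counts on the family in the libraries labelled Gsk3CA, against 0.0705%, 0.0607% and 0.143% in Mef2>+.

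The 11 low paralogs had summed levels of 48.1, 51.4 and 10.2 CPM in the libraries labelled Gsk3CA, against 0.460, 0.202 and 9.52 CPM in Mef2>+. Replicate 3 of Mef2>+ was close to replicate 3 of the libraries labelled Gsk3CA. In Mef2>Deaf1 the sum was 0.132, 0.121 and 3.91 CPM, and the outlying library was again replicate 3. It was 0.165, 0.441 and 0.489 CPM in Mef2>Deaf1RNAi, against 0.326, 0.677 and 0.0407 CPM in Mef2>whiteRNAi. In reads, the sum was 1647, 1593 and 216 counts in the libraries labelled Gsk3CA and 172 in replicate 3 of Mef2>+, against 9 and 3 in the other two Mef2>+ libraries. The 5 libraries with the highest paralog sums were the 5 with the highest spermatid sums. There the spermatid sum was 9.91 to 12.4 times the paralog sum. The part of testis tissue in these values was not tested.

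**Figure D4:**
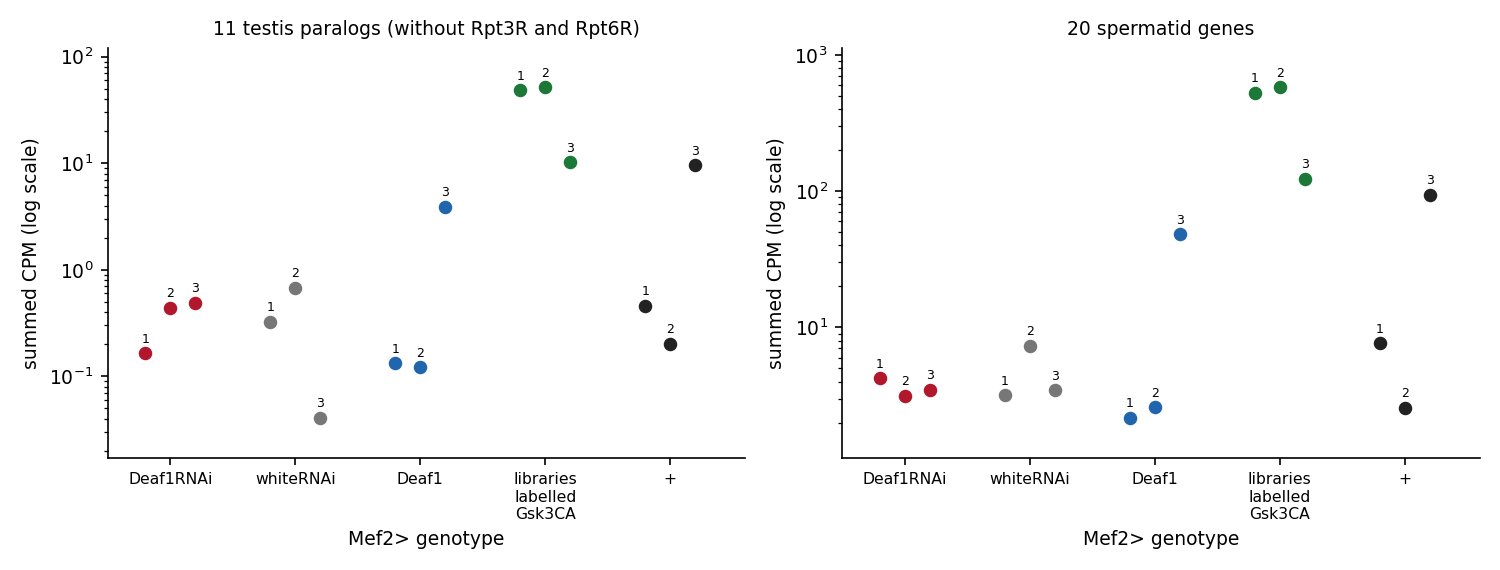
Summed CPM, on a log axis, of 11 testis paralogs (left) and of 20 spermatid genes (right) in each library, with replicate numbers. The 3 libraries labelled Gsk3CA, replicate 3 of Mef2>Deaf1 and replicate 3 of Mef2>+ stand above the other 10 in both panels, where no other library exceeds 0.677 CPM on the left or 7.62 CPM on the right.

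Gene by gene, 10 of the 11 were higher in replicate 3 of Mef2>+ than in its replicates 1 and 2, and Prosalpha3T, with 2 counts in each of those 3, was not. Among the alpha ring paralogs, Prosalpha6T had 5.73, 5.94 and 0.987 CPM in the libraries labelled Gsk3CA, against 0, 0 and 0.609 CPM in Mef2>+. Its general counterpart Pros35 had 475, 433 and 647 CPM in the libraries labelled Gsk3CA, against 554, 573 and 407 CPM in Mef2>+. Pros28.1B, a paralog of Pros28.1 (Prosalpha4), had 5.06, 5.75 and 1.03 CPM against 0.102, 0 and 0.941 CPM in Mef2>+. The other copy, Pros28.1A, had 4.30, 4.65 and 0.752 CPM in the libraries labelled Gsk3CA against 0.0512, 0 and 0.941 CPM in Mef2>+. These are high in 2 libraries labelled Gsk3CA and near the level of replicate 3 of Mef2>+ in the third. Prosalpha3T, a paralog of Pros29 (Prosalpha3), was the least abundant of the alpha set, with 2.28, 1.81 and 0.423 CPM in the libraries labelled Gsk3CA. Each Mef2>+ library held at most 2 counts of it, and its mean in the libraries labelled Gsk3CA was at least 8.64-fold higher than the level of 3 counts per Mef2>+ library.

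In the beta ring, Prosbeta5R, a paralog of the chymotrypsin-like subunit Prosbeta5, was the most abundant. It had 6.40, 5.49 and 1.88 CPM in the libraries labelled Gsk3CA against 0, 0 and 1.38 CPM in Mef2>+. Prosbeta2R2, a paralog of Prosbeta2, had 5.64, 6.20 and 1.504 CPM against 0, 0.0675 and 1.27 CPM in Mef2>+. For these the libraries labelled Gsk3CA all lay above Mef2>+, by a small margin in replicate 3. Prosbeta2R1, the second copy, had 2.31, 2.49 and 0.376 CPM in the libraries labelled Gsk3CA against 0, 0 and 0.498 CPM in Mef2>+. The Prosbeta4 paralogs are neighbours on chromosome arm 2L, with the odorant receptor gene Or23a between them. Prosbeta4R1 had 2.60, 3.03 and 0.329 CPM in the libraries labelled Gsk3CA against 0.0512, 0 and 0.609 CPM in Mef2>+. Prosbeta4R2 had 3.98, 4.52 and 0.987 CPM against 0.0512, 0 and 0.997 CPM in Mef2>+.

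In the cap, Rpn12R had 5.67, 6.68 and 1.18 CPM in the libraries labelled Gsk3CA against 0.102, 0 and 1.16 CPM in Mef2>+. Rpt4R had 4.18, 4.87 and 0.705 CPM against 0, 0 and 0.997 CPM in Mef2>+. Relative to its general counterpart per length, Rpn12R reached 26.7, 35.1 and 3.79 per 1000 of Rpn12 in the libraries labelled Gsk3CA and 0.372, 0 and 5.72 per 1000 in Mef2>+. The other low paralogs with a counterpart among the members peaked lower, at 6.24 (Prosbeta2R1) to 19.6 (Pros28.1A) per 1000. The makeup of the paralog sum was compared, without a test, in the 4 libraries of these genotypes with over 100 paralog counts. Prosbeta2R2 made up 11.7%, 12.1% and 14.8% of it in the libraries labelled Gsk3CA and 13.4% in replicate 3 of Mef2>+, and Rpn12R made up 11.8%, 13.0% and 11.6%, against 12.2%. Other genes differed more. Prosalpha6T made up 11.9%, 11.6% and 9.72%, against 6.40%, Prosalpha3T 4.74%, 3.52% and 4.17%, against 1.16%, and Prosbeta5R 13.3%, 10.7% and 18.5%, against 14.5%.

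None of the 10 low paralogs that passed the filter was called in the libraries labelled Gsk3CA by edgeR, where 5.19% of all genes tested were called higher. Their log2 fold changes were 3.13 to 4.32 with adjusted p-values of 0.085 to 0.154, and DESeq2 and limma voom called 0. In edgeR 9 had an unadjusted p under 0.05, beside 3807 of the 10930 genes tested. Without replicate 3 of Mef2>+, the control that held these transcripts, the adjusted p-values of these 10 were 0.016 to 0.048, and 15.3% of all genes tested were called higher. These 10 had passed the filter mainly through the libraries in which they were high, so none of these values counts in support of a difference. Without replicate 3 of the libraries labelled Gsk3CA only Pros28.1B was called (adjusted p = 0.047).

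Rpt3R, a paralog of the ATPase Rpt3, was found in all 15 libraries. It had 9.27, 9.98 and 4.18 CPM in the libraries labelled Gsk3CA, against 1.53, 1.96 and 2.60 CPM in Mef2>+. The groups did not overlap, and Rpt3R was called higher (log2 fold change 1.94, SE 0.36, adjusted p = 0.0068). The call held when any 1 of the 6 libraries was left out, and was lost with only the 6 libraries in the fit (adjusted p = 0.101) and with libraries scaled to the summed general subunits (0.076). Within the libraries labelled Gsk3CA it was highest where the spermatid sum was highest, in replicates 1 and 2. It was at 1.87, 3.15 and 3.72 CPM in Mef2>Deaf1RNAi, against 3.02, 2.77 and 2.08 CPM in Mef2>whiteRNAi, where spermatid sums were at most 7.35 CPM, and at 2.21, 1.70 and 1.88 CPM in Mef2>Deaf1. A low level was thus present also in libraries almost without spermatid transcripts. Neither the Deaf1RNAi nor the Deaf1 comparison called it (log2 fold changes 0.15 and -0.07). Rpt3R overlaps the mannosyltransferase gene CG8412 (Alg12) by 20 bp on the opposite strand. CG8412 was at 43.1 ± 5.91 CPM in the libraries labelled Gsk3CA, against 55.2 ± 5.44 CPM in Mef2>+.

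Rpt6R, a paralog of the ATPase Rpt6 (Pros45), was the most abundant paralog and was not highest where the spermatid sum was highest. It had 15.6, 15.3 and 22.9 CPM in the libraries labelled Gsk3CA, against 8.13, 6.75 and 3.16 CPM in Mef2>+. It was called higher (log2 fold change 1.57, SE 0.40, adjusted p = 0.024), and it was lowest in replicate 3 of Mef2>+, the control with the most spermatid transcripts. In Mef2>whiteRNAi it had 23.0, 24.9 and 9.003 CPM, also above all Mef2>+ libraries (log2 fold change 1.66, SE 0.40, adjusted p = 0.016), where 6.30% of all genes tested were called higher. The spermatid sums of those 3 libraries were 3.16, 7.35 and 3.46 CPM.

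Both calls of Rpt6R depended on the setting. That in the libraries labelled Gsk3CA was lost in limma voom (adjusted p = 0.057), with only the 6 libraries compared (0.108), and without replicate 2 of Mef2>+ (0.062) or replicate 1 (0.057) or 2 (0.059) of the libraries labelled Gsk3CA. That in Mef2>whiteRNAi was lost in limma voom (0.054), with only the 6 libraries (0.089), and without replicate 3 of Mef2>+ (0.052) or replicate 1 (0.065) or 2 (0.064) of Mef2>whiteRNAi. Rpt6R had 13.8, 12.4 and 9.93 CPM in Mef2>Deaf1RNAi, which overlapped Mef2>whiteRNAi (log2 fold change -0.65, adjusted p = 0.334). In Mef2>Deaf1 it had 7.15, 7.57 and 11.3 CPM, which overlapped Mef2>+ (log2 fold change 0.53, adjusted p = 0.448). Per length it stood at 32.6, 36.3 and 32.7 per 1000 of Pros45 in the libraries labelled Gsk3CA and at 38.0, 36.3 and 18.5 per 1000 in Mef2>whiteRNAi, against 13.5, 11.2 and 6.91 per 1000 in Mef2>+. On this scale the 3 libraries labelled Gsk3CA differed little among themselves.

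**Figure D5:**
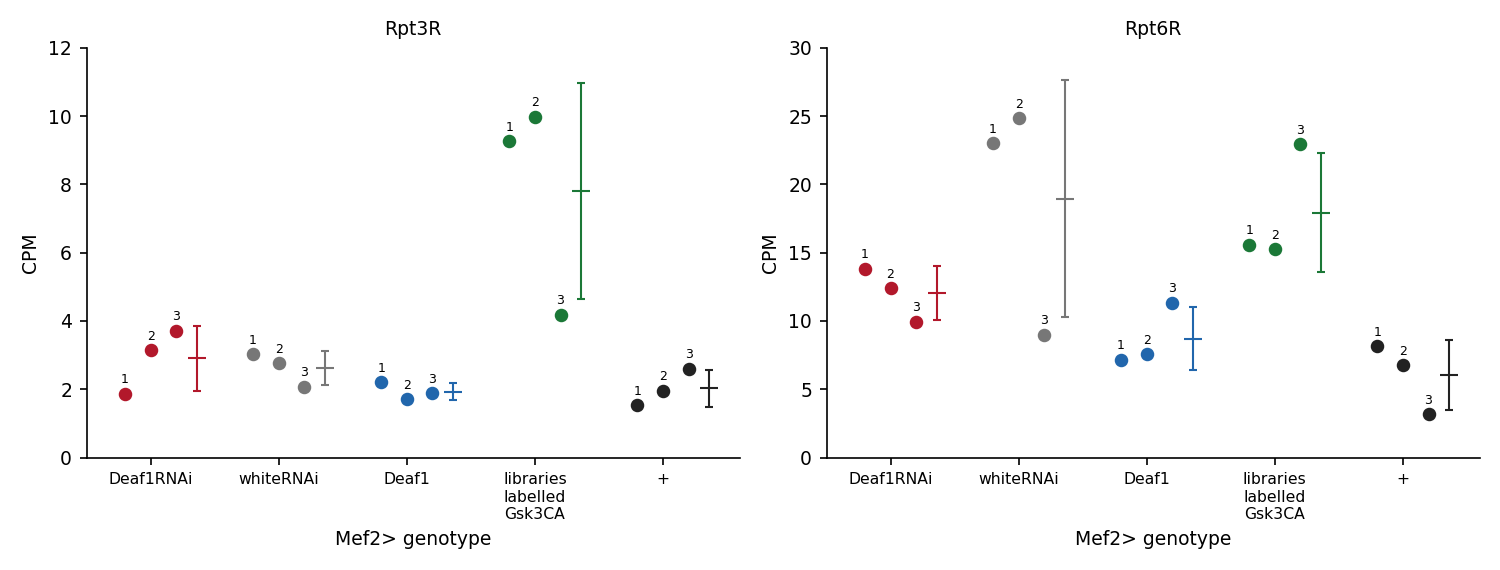
CPM of Rpt3R and Rpt6R in each library, with replicate numbers and the mean and SD of 3. Rpt3R is above 4 CPM only in the libraries labelled Gsk3CA, at 4.18 to 9.98 CPM, while Rpt6R is also at 23.0 and 24.9 CPM in replicates 1 and 2 of Mef2>whiteRNAi.

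The lists of genes that act around the proteasome were not called more often than genes at large in any comparison. Of 11 listed regulators and assembly factors, 0 were called with Deaf1 RNAi and 0 between the controls, beside 8.81% and 16.5% of all genes tested. Deaf1 overexpression gave 1 call, beside 12.4% of all genes, and the libraries labelled Gsk3CA also gave 1, beside 14.1%. With Deaf1 overexpression it was the deubiquitinase gene Uch-L3, at 120 ± 6.31 CPM against 155 ± 10.6 CPM in Mef2>+ (log2 fold change -0.36, SE 0.11, adjusted p = 0.043, and 0.071 with replicate number as a block). In the libraries labelled Gsk3CA it was REG, the 11S activator of the core, at 45.0 ± 1.35 CPM against 56.8 ± 5.44 CPM in Mef2>+ (log2 fold change -0.33, SE 0.09, adjusted p = 0.032). The transcription factor gene cnc, whose product raises proteasome genes when the proteasome is impaired, was at 836 ± 55.8 CPM in Mef2>Deaf1RNAi, against 745 ± 53.2 CPM in Mef2>whiteRNAi. It was at 739 ± 67.6 CPM in Mef2>Deaf1 and at 821 ± 115.1 CPM in the libraries labelled Gsk3CA, set beside 712 ± 128 CPM in Mef2>+, and was called in none of these comparisons.

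Of 18 genes of ubiquitin and its conjugation, 1 was called with Deaf1 RNAi and 2 in each other comparison, beside 8.81% of all genes tested with Deaf1 RNAi and 12.4 to 16.5% in the others. With Deaf1 RNAi this was the ubiquitin ligase gene poe, at 2015 ± 134 CPM in Mef2>Deaf1RNAi, against 1298 ± 125 CPM in the Mef2>whiteRNAi controls (log2 fold change 0.63, SE 0.11, adjusted p = 0.0068). With Deaf1 overexpression 2 were called lower, the ubiquitin-like modifier gene Nedd8 (log2 fold change -0.28, SE 0.08, adjusted p = 0.035) and the ubiquitin ligase gene park (log2 fold change -0.45, SE 0.12, adjusted p = 0.033). With replicate number as a block their adjusted p-values were 0.072 and 0.065. Of the 6 fits that each left out 1 library, 0 called Uch-L3, 1 called Nedd8 and 2 called park. The call of poe held when any 1 of the 6 Mef2>Deaf1RNAi and Mef2>whiteRNAi libraries was left out. It was lost with libraries scaled to the summed general subunits (adjusted p = 0.136). The fusion genes RpS27A and RpL40, which encode ubiquitin joined to a ribosomal protein, were the only 2 called in the libraries labelled Gsk3CA, both lower (log2 fold changes -0.27, SE 0.08, and -0.30, SE 0.08, adjusted p = 0.040 and 0.039). They were also the 2 called lower in Mef2>whiteRNAi against Mef2>+ (log2 fold changes -0.40, SE 0.08, and -0.45, SE 0.08, adjusted p = 0.0059 and 0.0050). Both of those calls were lost with libraries scaled to the summed general subunits (adjusted p = 0.147 and 0.072). That of RpS27A was also lost with only the 6 libraries compared (0.070). The calls of REG, RpS27A and RpL40 in the libraries labelled Gsk3CA were lost with DESeq2's size factors (adjusted p = 0.1001, 0.136 and 0.090), and of the 6 fits that each left out 1 library 2 called REG, 1 called RpS27A and 2 called RpL40.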

How the data were processed

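RNA from filleted larvae was prepared with a stranded TruSeq mRNA kit and sequenced as paired reads. The authors deposited unnormalized read counts per gene symbol for each library, and their processing notes name CASAVA 1.7, STAR and HTSeq. Entries on no gene, 9.31 to 15.0% of a file, were left out, and the depth was 16186361 to 32756446 gene counts. Counts were tested with edgeR 4.0.16 in R 4.3.3 (TMM factors, filterByExpr by genotype, quasi-likelihood F test, 1 model of 15 libraries, Benjamini-Hochberg adjustment over 10930 genes of 15682). CPM use TMM factors. Limma 3.58.1 (voom) and DESeq2 1.42.0 were alternatives, beside other size factors, other filters, a replicate block, only the 6 libraries compared and each library left out. The step was tested on simulated data.

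Symbols were matched to RefSeq and BDGP6 annotations, 30 by current symbol and 11 by synonym, and no coordinates are given because the files use an earlier build. By rule, paralogs with at least 1 CPM in a library are named beside their counterparts, and in each comparison the general subunits called and those with the highest and lowest fold change; other subunits were named after their values were seen. The members and lists were chosen with earlier results of these data known. Same-numbered replicates deviated together in Mef2>Deaf1 and Mef2>+ (correlations of deviations 0.30, 0.24 and 0.48). The main fit did not pair them, and replicate number as a block was an alternative. With that block the calls of CG30382, Uch-L3, Nedd8 and park in Mef2>Deaf1 were lost. With 3 libraries against 3 an exact permutation test cannot go below 0.1. Replicates are biological by the study's account.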

Additional observations from a re-analysis of the deposited data

How the results depend on the processing

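The count of general subunits called was 0 in Mef2>Deaf1RNAi against Mef2>whiteRNAi, in the libraries labelled Gsk3CA against Mef2>+ and in Mef2>whiteRNAi against Mef2>+ under each alternative run, including DESeq2, limma voom and each library left out. In Mef2>Deaf1 against Mef2>+ it was 1 with DESeq2's size factors in edgeR, 1 with at least 10 counts in every library, 1 with only the 6 libraries compared, 2 in DESeq2 and 2 with libraries scaled to the summed general subunits (chosen after the data were seen), and it ran from 0 to 1 with each library left out, the 1 being without replicate 3 of Mef2>+. The gene was Prosalpha1 in each, with Rpn9 beside it where there were 2. With the replicate block the count stayed at 0 in all 4 comparisons. Same-numbered replicates of the libraries labelled Gsk3CA and of Mef2>+ deviated in opposite directions (correlations -0.56, -0.65 and -0.78). For Mef2>Deaf1RNAi with Mef2>whiteRNAi, and for Mef2>whiteRNAi with Mef2>+, the correlations ran from -0.23 to 0.22. No called value changed sign. Depth limited the low paralogs, which had at most 2 counts each in replicates 1 and 2 of Mef2>+.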

Other observations

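Other proteasome genes stand in the files under symbols that the rule did not take. General subunits among them were at the level of the members and were called in none of the 4 comparisons: Mov34 (Rpn8), Tbp-1 (Rpt5), CG17331 (Prosbeta4) and CG13349 (Rpn13). Mov34 had 389, 387 and 451 CPM in Mef2>Deaf1, against 449, 456 and 326 CPM in Mef2>+. CG17331 had 315, 337 and 345 CPM in Mef2>Deaf1RNAi, against 344, 392 and 293 CPM in Mef2>whiteRNAi.

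The paralogs CG31742 (Prosbeta5R2) and CG6789 (Rpn13R) were, like the 11 low paralogs, highest in replicates 1 and 2 of the libraries labelled Gsk3CA. In replicate 3 of Mef2>+ CG31742 was near replicate 3 of the libraries labelled Gsk3CA, while CG6789 was below it. CG31742 had 5.79, 6.04 and 1.93 CPM in the libraries labelled Gsk3CA, against 0.153, 0 and 2.16 CPM in Mef2>+, and was called only without replicate 3 of Mef2>+ (adjusted p = 0.029). CG6789 had 2.13, 2.49 and 0.705 CPM in the libraries labelled Gsk3CA, against 0.0512, 0.0675 and 0.221 CPM in Mef2>+, and was called higher (log2 fold change 3.90, SE 1.04, adjusted p = 0.030). It was at most 0.221 CPM in any library outside those labelled Gsk3CA. Both genes passed the filter mainly through libraries in which they were high, so neither call counts in support of a difference. The call of CG6789 was lost with the replicate block (adjusted p = 0.056), with only the 6 libraries compared (0.094), with libraries scaled to the summed general subunits (0.114), without replicate 1 (adjusted p = 0.114) or 2 (0.093) of Mef2>+ and without replicate 1 (0.104) or 2 (0.113) of the libraries labelled Gsk3CA.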
